A study of Mus musculus with 144 samples.

Results

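Livers of NZB/BINJ females were compared with livers of SM/J females, both fed an atherogenic diet with 30% fat and added cholic acid. The members were the 3 libraries titled as NZB females and the 3 titled as SM females on that diet, 6 of the 144 libraries of the series, and each difference was set beside the same difference in 3 NZB and 3 SM females fed a regular chow of 6% fat. The mice of these 4 groups were harvested between 11 and 13 weeks of age, had no treatment in the labels other than diet, and are given as biological replicates, 1 library per mouse. The series surveyed liver RNA of both sexes of 12 inbred strains on these diets with expression arrays. NZB and SM, as the strains are called below, are inbred: every mouse of a strain carries the same alleles, so a strain difference covers all their genetic differences at once, and whole liver mixes hepatocytes with macrophages, endothelial, stellate and blood cells. In such bulk tissue, fewer cells of a type and less RNA per cell cannot be told apart.

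NZB and SM are known as the parents of an intercross used to map genes for HDL cholesterol, and the comparison asks how the parents' livers differ on the diet under which HDL was studied. HDL is assembled when APOA1, made by hepatocytes and gut, takes up cholesterol and phospholipid through the transporter ABCA1. LCAT then esterifies its cholesterol, PLTP and the lipases LIPC and LIPG remodel it, and SCARB1 on hepatocytes takes up its cholesterol, which leaves the body as bile acids or through the biliary exporters ABCG5 and ABCG8. Liver macrophages, the resident ones being called Kupffer cells, handle lipoprotein lipid too and carry ABCG1, LPL and APOE. Plasma HDL itself was not measured in these files.

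Values are log2 expression per gene as deposited, so a difference of 1 is 2-fold, and "called" means that limma's adjusted p was under 0.05 over 18193 genes. The array medians were 5.0 to 5.09 and no detection calls were used here, so a difference set against values near or below those medians, as for Jchain, Mmp12, Itgax, Cxcl2, Cd163 or Cyp39a1, is a size on this scale and not an exact fold. Replicate libraries of a group correlated at r of 0.990 to 0.996. Of 15 hepatocyte markers measured, 1 was called between the strains on the atherogenic diet, as were 0 of 8 pancreas and 0 of 4 adipocyte markers. Of all genes 18.0% were called. Alb, the gene of serum albumin, lay at 14.45 to 14.49 in NZB and at 14.50 to 14.54 in SM. Xist, transcribed from the inactive X chromosome, was at 11.43 to 11.56 in these 6 libraries. Sqle, an enzyme of sterol synthesis, was at 7.83 to 9.57 in the 6 chow libraries and at 4.81 to 5.02 in the 6 atherogenic-diet libraries, which sets the diets apart without overlap. NZB library 3 on the atherogenic diet stood at the top for macrophage markers, and calls named here that were lost without it are given with that value.

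The strains differed in more genes on the atherogenic diet than on chow. On the atherogenic diet 3270 genes (18.0%) were called, 1924 of them higher in NZB (10.6% of all genes) and 1346 higher in SM (7.4%), with 546 (3.0%) at least 2-fold higher in NZB and 112 (0.616%) at least 2-fold higher in SM. The split between the directions depended on the scaling, being 1732 higher in NZB and 1704 higher in SM after quantile normalization and 2437 and 2438 with array weights. On chow 1709 (9.39%) were called, 839 higher in NZB (4.61%) and 870 higher in SM (4.78%), with no stable lean to either strain. The same call in the same direction on both diets was made for 1003 genes, 30.7% of the atherogenic-diet calls and 58.7% of the chow calls, while 15 genes were called in opposite directions. The test of the difference between diets, (NZB minus SM on the atherogenic diet) minus (NZB minus SM on chow), called 606 genes (3.33%), 524 of them positive (2.88%) and 82 negative (0.451%). Of the 524, the diet raised 507 in NZB and lowered 8 in SM by the call within the strain, and of the 82 it lowered 63 in NZB and raised 6 in SM. The diet changed 2412 genes in NZB (13.3%, with 8.79% up and 4.47% down) and 265 in SM (1.46%, with 0.676% up and 0.781% down). Without NZB library 3 on the atherogenic diet the difference between diets was called for 265 genes and the diet change in NZB for 1478.

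**Figure D1:**
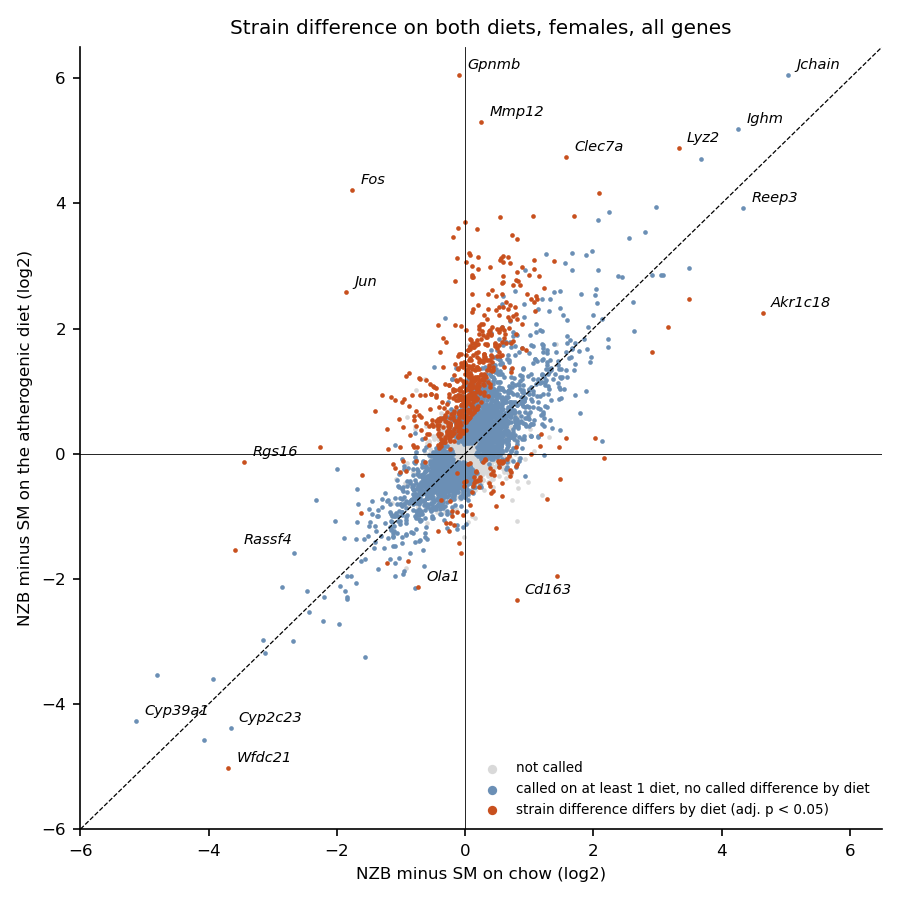
Each point is 1 of 18193 genes, with the NZB minus SM difference in females on chow (x axis, log2) and on the atherogenic diet (y axis, log2), and the dashed line marks equal differences. Orange points, the 606 genes whose strain difference differed by diet, lie mostly above the line near 0 on the x axis, from Gpnmb at 6.05 downward, while Jchain, Ighm, Reep3, Cyp39a1 and Cyp2c23 lie far from 0 on both axes.

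No difference in RNA was called for the main structural proteins of HDL. Apoa1, the main HDL protein, was at 14.48, 14.47 and 14.50 in NZB and 14.51, 14.46 and 14.50 in SM on the atherogenic diet. Apoa2, the second HDL protein, was at 14.37, 14.36 and 14.33 in NZB and 14.31, 14.31 and 14.25 in SM. Neither was called, Apoa2 with a difference of 0.07 (SE 0.03, adjusted p = 0.17), and the groups overlapped for Apoa1 but not for Apoa2. Apoe, a ligand for remnant uptake, had a difference of -0.01 (SE 0.04, adjusted p = 0.892). Values near 14 lie at the top of the range of these arrays, whose highest value was 14.74, where a difference in level can be compressed, and whether one was hidden there was not tested.

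Of the 23 measured genes of HDL and other lipoprotein proteins, 4 were higher in NZB (10.6% of all genes were) and 4 higher in SM (7.4%) on the atherogenic diet, with a median difference of -0.01 beside -0.05 for all genes. Saa1 and Saa2, acute phase proteins that ride on HDL during inflammation, were among the 4 higher in NZB. Saa2 was at 10.54, 12.47 and 11.57 in NZB and at 8.79, 9.79 and 8.56 in SM, so the groups did not overlap (difference 2.48, SE 0.65, adjusted p = 0.00263). Saa1 differed by 1.90 (SE 0.60, adjusted p = 0.0168). Neither was called on chow, and neither had a called difference between diets (adjusted p = 0.682 for Saa2 and 0.758 for Saa1). Apobec1, which edits the Apob message to its shorter form, was at 8.31, 8.22 and 8.84 in NZB and 7.09, 6.98 and 7.14 in SM on the atherogenic diet, and at 7.44, 7.36 and 7.36 against 7.04, 6.82 and 7.19 on chow. All 3 NZB libraries on the atherogenic diet thus stood above every other one, and the strain difference grew by 1.02 with the diet (SE 0.27, adjusted p = 0.0148). Pon2, an intracellular antioxidant lactonase, was higher in NZB by 0.39.

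Among the 4 higher in SM, Apon, an apolipoprotein secreted by the liver, differed most, at 11.81, 11.96 and 11.94 in NZB and 12.71, 12.63 and 12.60 in SM. Its groups did not overlap (difference -0.74, SE 0.08, adjusted p = 6.1e-13), and on chow the difference was -0.38 (adjusted p = 0.00021). Apoa5 (-0.32), Apoc4 (-0.20) and Apoc3 (-0.15), which act on triglyceride clearance, followed with small differences. Each of those 3 calls was lost without NZB library 2 or 3 or SM library 2, and those of Apoa5 and Apoc4 also without SM library 3 (adjusted p = 0.0521 to 0.183). Without NZB library 3 the list held 2 genes higher in NZB and 1 higher in SM, without NZB library 2 or SM library 2 it held 1 higher in SM, and without SM library 3 it held 2. The call of Saa1 was lost without NZB library 2 or 3 or SM library 1 or 3 (adjusted p = 0.0606 to 0.103), and that of Pon2 without NZB library 3 (adjusted p = 0.121). The difference between diets of Apobec1 was lost without NZB library 3 or SM chow library 3 (adjusted p = 0.149 and 0.0548).

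Of 25 measured genes for HDL assembly, remodelling and uptake, 8 were higher in NZB (10.6% of all genes) and 6 higher in SM (7.4%), with a median of 0.06. The 3 and 3 libraries did not overlap for 16 of these 25 genes and for 15 of the 23 genes of HDL and other lipoprotein proteins, beside 32.4% of all genes. Scarb1, the hepatic receptor for selective uptake of HDL cholesterol, was at 10.99, 10.90 and 10.90 in NZB and 11.39, 11.61 and 11.63 in SM. On chow it was at 10.10, 10.26 and 10.20 in NZB and 10.61, 11.40 and 11.26 in SM. SM was above NZB on both diets without overlap (22.7% of all genes on chow did not overlap), by 0.61 (SE 0.15, adjusted p = 0.00155) on the atherogenic diet and 0.90 (SE 0.15, adjusted p = 4.6e-06) on chow, and NZB had the lowest and SM the highest of the 10 strain means on the atherogenic diet. All 3 Scarb1 probe sets were called in that direction.

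Pltp, which moves phospholipid onto HDL, ran the other way. It was at 11.07, 10.91 and 11.23 in NZB and 9.63, 9.71 and 9.79 in SM (difference 1.36, SE 0.19, adjusted p = 1.9e-08), and on chow NZB was higher by 0.71 (adjusted p = 0.00736). The chow call was lost without SM chow library 3 (adjusted p = 0.115). Abcg1, which hands cholesterol from macrophages to HDL, was at 9.41, 9.42 and 9.61 in NZB and 8.02, 7.70 and 7.97 in SM, a difference of 1.58 (SE 0.20, adjusted p = 3.3e-10). Lpl, the lipase of triglyceride-rich particles, was at 12.63, 12.46 and 12.68 in NZB and 11.21, 10.82 and 10.87 in SM, a difference of 1.62 (SE 0.27, adjusted p = 1.2e-06), and the diet raised it in both strains (2.48 in NZB, 2.06 in SM). In all 3 genes the NZB and SM libraries did not overlap on the atherogenic diet. Macrophages also carry these 3 genes, the macrophage markers given further on were higher in the same libraries, and their part was not tested.

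Npc2, which carries cholesterol out of lysosomes, was higher in NZB by 1.11 (SE 0.15, adjusted p = 2.4e-09) and P2ry13, a nucleotide receptor linked to HDL uptake, by 1.15 (SE 0.21, adjusted p = 6.4e-06). Npc1, the membrane partner of NPC2 in the same step, was lower in NZB by 0.47 (SE 0.16, adjusted p = 0.0264). Angptl4, an inhibitor of LPL, was at 9.26, 8.67 and 8.99 in NZB and 10.36, 10.68 and 10.49 in SM, so that the lipase and its inhibitor differed in opposite directions (difference -1.54, SE 0.28, adjusted p = 8.3e-06). Lipg, the endothelial lipase, was lower in NZB by 0.80 (SE 0.27, adjusted p = 0.0233), and Mttp, which loads lipid onto apolipoprotein B, by 0.42 (SE 0.11, adjusted p = 0.00226). Abca1, Lcat, Nr1h3 and Nr1h4, the exporter, the esterifying enzyme and the oxysterol and bile acid receptors, had differences of 0.14, -0.15, 0.04 and 0.00 and were not called. The call of Lipg was lost without NZB library 3 or SM library 1 (adjusted p = 0.195 and 0.122), that of Npc1 without NZB library 1 or 3 or SM library 3 (adjusted p = 0.0772 to 0.139), and that of Sort1, a sorting receptor, without SM library 2 (adjusted p = 0.158). With the mean of all probe sets of a gene, Lipg differed by -0.41 and was not called (adjusted p = 0.104). Without SM library 2 the list held 5 genes higher in NZB.

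**Figure D2:**
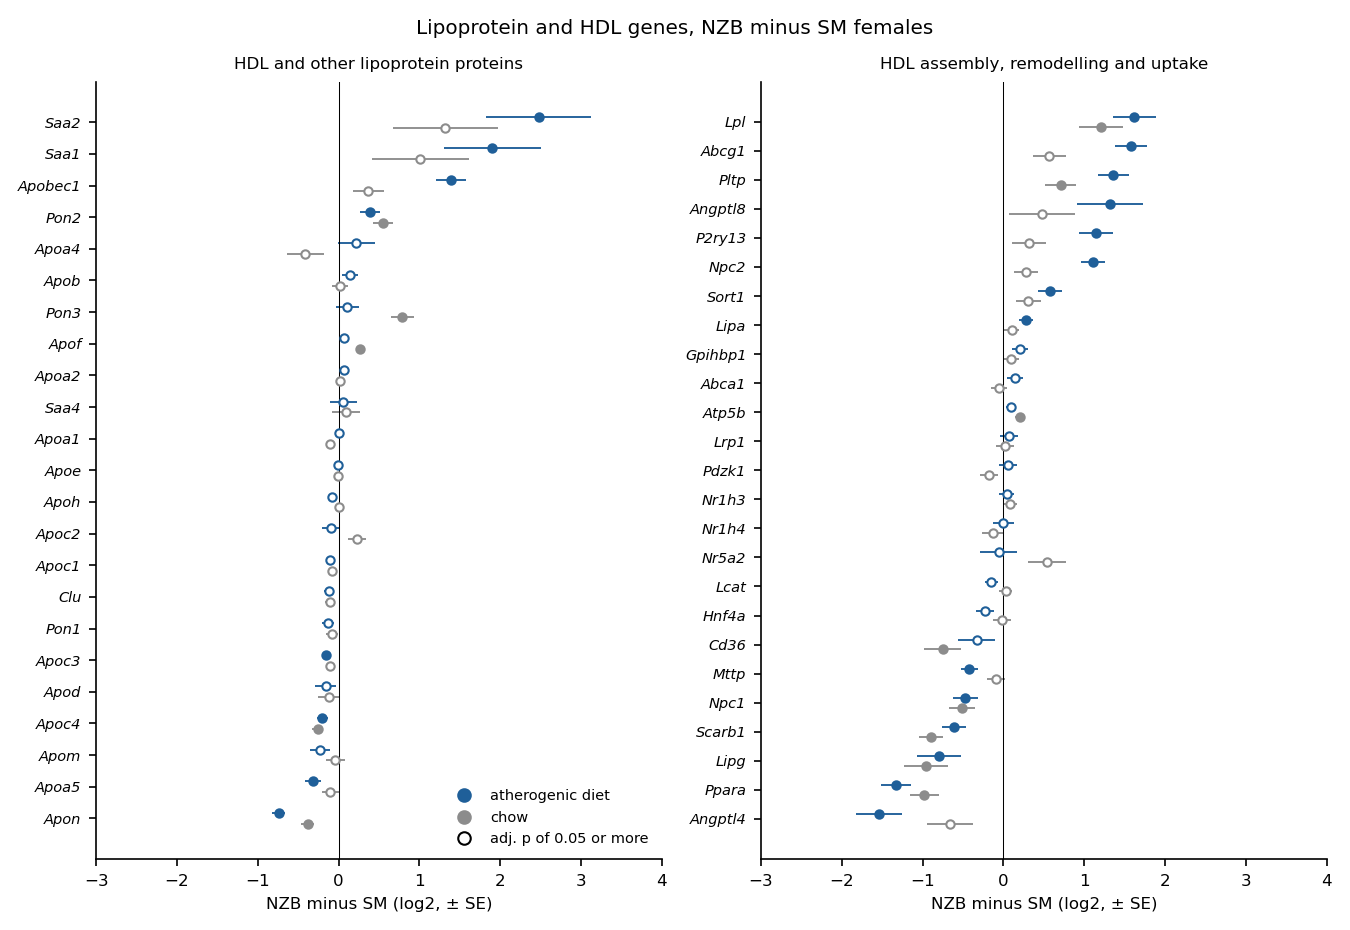
NZB minus SM difference in females (log2, ± SE) for the measured members of both HDL lists, on the atherogenic diet (blue) and chow (grey), with open circles where the adjusted p was 0.05 or more. Apoa1, Apoa2 and Apoe sit near 0 on both diets, while Lpl, Abcg1 and Pltp lie above 1 and Ppara and Angptl4 below -1 on the atherogenic diet.

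Macrophage markers had the largest median difference of the gene lists. Of 22 measured macrophage and Kupffer cell markers, 20 were higher in NZB (10.6% of all genes) and 2 higher in SM (7.4%) on the atherogenic diet. None of the 22 overlapped between the groups (32.4% of all genes did not), and the median difference was 1.85. On chow 8 were higher in NZB (4.61% of all genes) and 0 higher in SM, with a median of 0.67, and the difference between diets was called for 11 upward (2.88%) and 2 downward (0.451%). The mean over the 22 markers was 8.89 to 9.72 per NZB library on the atherogenic diet, with library 3 the highest, 7.75 to 7.87 in NZB on chow, 7.19 to 7.25 in SM on the atherogenic diet and 6.97 to 7.44 in SM on chow. The diet raised 18 of the 22 in NZB (8.79% of all genes) and 3 in SM (0.676%). The count of 11 was 5 without NZB library 3 and 7 without chow library 1 of either strain, and the count of 2 was 1 without NZB library 1 or SM chow library 3.

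Gpnmb, a lysosomal membrane glycoprotein of lipid-filled macrophages, was high in NZB on the atherogenic diet alone among the 4 groups. It was at 11.49, 11.26 and 12.14 in NZB on the atherogenic diet and between 5.36 and 5.78 in the other 9 libraries. The 3 libraries stood 6.05 (SE 0.31, adjusted p = 3.4e-30) above SM on that diet, with a difference of -0.10 on chow. Mmp12, the macrophage elastase, was at 9.37, 9.55 and 10.14 in NZB and 4.47, 4.21 and 4.50 in SM, and at 4.25 to 4.83 in the 6 chow libraries, all below the array medians except NZB on the atherogenic diet. Itgax, the CD11c integrin of dendritic cells and lipid-laden macrophages, was at 8.02, 8.28 and 8.70 in NZB and 5.06, 4.78 and 4.75 in SM. Like Gpnmb, Mmp12 (difference 5.30, SE 0.37) and Itgax (3.47, SE 0.30) were near their chow level in SM on the atherogenic diet and high only in NZB on that diet among the 4 groups.

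Cd68, a lysosomal glycoprotein used to stain macrophages, was at 9.53, 9.87 and 10.49 in NZB and 6.83, 6.76 and 6.81 in SM, and at 7.55, 7.51 and 7.82 against 7.44, 6.83 and 6.83 on chow. Its difference grew from 0.59 on chow, not called, to 3.16 (interaction 2.57, SE 0.36, adjusted p = 3.4e-07). Lyz2, the lysozyme of the myeloid lineage, differed on both diets, at 13.07, 13.12 and 13.49 in NZB and 8.39, 8.43 and 8.22 in SM on the atherogenic diet, and at 10.28, 10.30 and 10.44 against 6.99, 7.0 and 7.06 on chow. The strain order was the same on both diets without overlap, and the diet raised Lyz2 in both strains, by 2.88 in NZB and 1.33 in SM. Clec7a, the receptor for fungal glucans, differed by 4.74 (SE 0.34, adjusted p = 7.5e-21) and by 1.57 on chow (adjusted p = 0.00046), and Lgals3, a galactose-binding lectin, by 3.80 (SE 0.35, adjusted p = 3.3e-15) and by 1.05 on chow (adjusted p = 0.0435). The interaction of Lyz2, 1.55, was lost without any of 6 libraries (adjusted p = 0.0541 to 0.128), and the chow call of Lgals3 without any of chow libraries 2 and 3 of either strain (adjusted p = 0.0944 to 0.245).

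The genes that define resident Kupffer cells did not move together. Clec4f, a lectin specific to Kupffer cells in the mouse, was lower in NZB, at 8.11, 8.43 and 8.98 against 9.44, 9.57 and 9.39 in SM (difference -0.96, SE 0.19, adjusted p = 6.7e-05), with 0.11 on chow. Cd163, the haemoglobin scavenger receptor, was at 3.53, 3.62 and 3.59 in NZB and 5.92, 6.04 and 5.78 in SM on the atherogenic diet, but at 8.49, 8.23 and 8.29 against 7.79, 7.49 and 7.32 on chow. The diet lowered Cd163 in both strains, in SM by 1.62 and in NZB, to values below the array medians, by 4.76 on this scale, and the strain difference changed by -3.14 (SE 0.48, adjusted p = 2.7e-06). Vsig4 and Timd4, receptors of Kupffer cells for complement and for dying cells, were higher in NZB by 1.49 and 1.51, Adgre1, the classical mouse macrophage antigen, by 1.96, and Csf1r, the growth factor receptor of all macrophages, by 1.72. Marco, a scavenger receptor, was at 7.79, 9.55 and 9.92 in NZB and 5.59, 6.11 and 6.11 in SM, where chow libraries of both strains lay between 7.15 and 8.10. The interaction of Clec4f, -1.07, was lost without NZB library 1 or SM chow library 3 (adjusted p = 0.071 and 0.0789), and that of Marco, 2.95, without NZB library 3 (adjusted p = 0.0569).

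**Figure D3:**
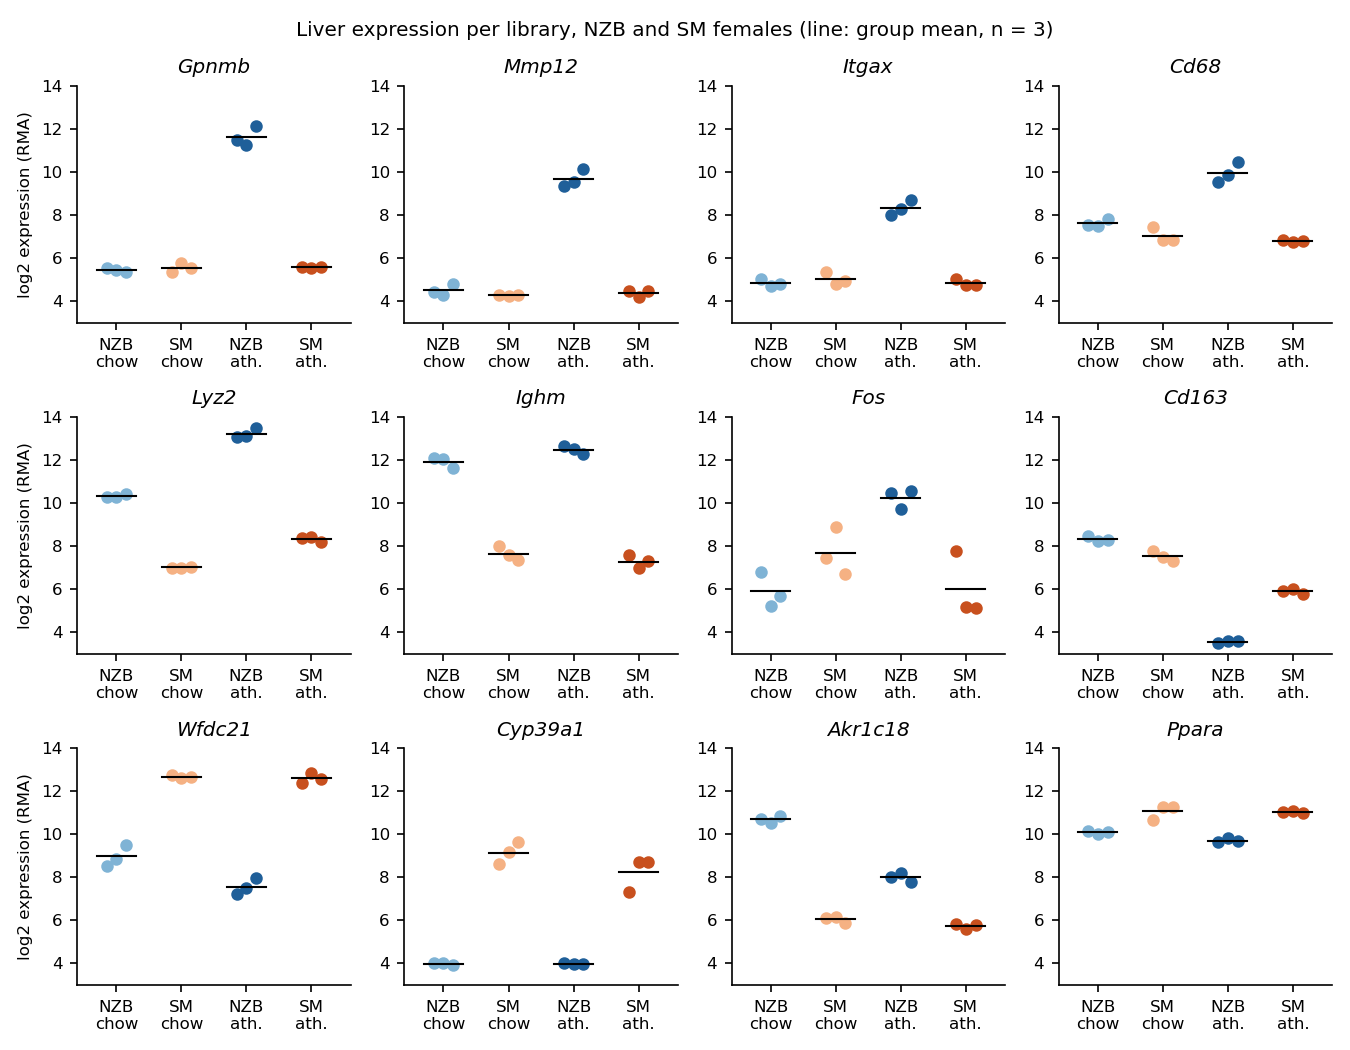
Log2 expression of 12 genes in each of the 12 female libraries, grouped as NZB and SM on chow and on the atherogenic diet (ath.), with a line at each group mean (n = 3). Gpnmb, Mmp12 and Itgax are high in NZB on the atherogenic diet alone, Ighm, Wfdc21 and Cyp39a1 separate the strains on both diets, and Cd163 is above 7 in all chow libraries and below 4 in NZB on the atherogenic diet.

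Fos and Jun, subunits of the AP-1 transcription factor whose genes respond within minutes to growth and stress signals, were among the 12 genes whose strain difference rose most with the diet. Fos was at 10.46, 9.71 and 10.55 in NZB and 7.76, 5.19 and 5.14 in SM on the atherogenic diet, and at 6.82, 5.25 and 5.69 against 7.44, 8.88 and 6.73 on chow. NZB was above SM without overlap on the atherogenic diet (difference 4.21, SE 0.73, adjusted p = 3.5e-06), while on chow the groups overlapped (difference -1.76, adjusted p = 0.128). Jun was at 10.16, 9.65 and 10.07 in NZB and 9.07, 6.77 and 6.30 in SM, and on chow at 7.05, 5.23 and 5.98 against 7.56, 8.89 and 7.40. It was called in opposite directions on the diets, 2.58 (SE 0.62, adjusted p = 0.00096) and -1.86 (SE 0.62, adjusted p = 0.0413), and the chow call was lost without NZB chow library 2 or 3 or SM chow library 2 (adjusted p = 0.123 to 0.263). Within SM the Fos values of library 1 on the atherogenic diet and library 2 on chow stood far above those of the other 2 libraries of their group.

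Atf3, a stress-induced partner of AP-1 proteins, varied less within groups. It was at 8.43, 7.62 and 8.08 in NZB and 5.31, 4.85 and 4.97 in SM on the atherogenic diet, and at 4.83 to 5.24 in the 6 chow libraries. Only the NZB libraries on the atherogenic diet were high among the 12 (difference 3.00, SE 0.19, adjusted p = 1.9e-23, interaction 2.90). The other genes called in opposite directions on the diets were headed by Zfp36, an RNA-destabilising regulator of cytokine messages (0.93 and -1.30), Anxa1, an anti-inflammatory phospholipid-binding protein (0.90 and -1.16), Junb (0.87 and -0.96), and the matrix genes Tgfbi (0.82 and -0.98) and Dcn (0.77 and -0.88). Leaving out 1 library ended the atherogenic-diet call of Zfp36 in 4 cases (NZB 1 and 3, SM 2 and 3, adjusted p = 0.063 to 0.184), of Tgfbi in 4 (NZB 2 and 3, SM 1 and 3, adjusted p = 0.052 to 0.173) and of Dcn in 5 (adjusted p = 0.0575 to 0.177), and that of Junb in most cases, up to 0.356 without SM library 2. The chow calls of Junb, Tgfbi and Dcn were lost in some cases too, among them without NZB chow library 2 (adjusted p = 0.154, 0.0941 and 0.162). Clock genes, chosen after their values were seen, gave differences on the atherogenic diet of 0.48 for Arntl, -0.80 for Dbp, -0.47 for Per3, -0.49 for Ciart and -0.11 for Nr1d1, none called, and on chow Arntl (1.03, adjusted p = 0.00239) and Dbp (-1.67, adjusted p = 0.00671) were called. The chow call of Dbp was lost without NZB chow library 3 or SM chow library 2 (adjusted p = 0.0729 and 0.0513). The part of the clock genes in the AP-1 differences was not tested.

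A pattern for the AP-1 recognition sequence, TGANTCA, was looked up in the 250 bases before each gene's start in RefSeq (GRCm38.p6), after the values of Fos and Jun were seen. The pattern reads the same on both strands and takes any base at its centre (N), so it is looser than the AP-1 consensus, which has C or G there. It was present in 6.75% of all 32851 promoter entries, in 6.7% of the 14453 measured genes with an entry, and in 34 of 414 genes (8.21%) with a called positive difference between diets. Of the 12 largest such genes 10 had an entry and 2 held it (Mmp12 and Itgax), and of the 18 macrophage markers with an entry 4 held it, as did 3 of 16 matrix genes and 6 of 19 chemokine and inflammatory genes. A second sequence, GAGGAA, the core bound by the myeloid factor PU.1, was searched on both strands. It was in 10 of the 18 macrophage markers (55.6%), in 33.8% of the 414 genes, in 25.9% of the measured genes and in 23.3% of all entries. Among the 12 largest genes 4 of 10 held GAGGAA (40%). The matrix genes, with 3 of 16 (18.8%), and the chemokine and inflammatory genes, with 4 of 19 (21.1%), lay below the share of the measured genes. A match is a description of letters, and a window without it says only that these letters are absent there. The sequences below show, for 5 genes high in NZB on the atherogenic diet, 100 bases around the match with the match in capitals, and for Gpnmb, which had none, the last 100 bases before the start. Cd68 held 2 matches, of which the one nearer the start is shown, and Mmp12 and Tnfaip3 had 2 promoter entries each, of which 1 held the sequence. The match of Trem2 has A at the centre and is thus outside the AP-1 consensus.
Mmp12, chr9:7347274-7347373, plus strand: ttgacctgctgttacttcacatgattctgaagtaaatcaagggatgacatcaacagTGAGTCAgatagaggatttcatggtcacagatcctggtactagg
Itgax, chr7:128129447-128129546, plus strand: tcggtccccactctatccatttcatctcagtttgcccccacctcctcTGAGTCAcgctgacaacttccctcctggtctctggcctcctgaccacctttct
Cd68, chr11:69666171-69666270, minus strand: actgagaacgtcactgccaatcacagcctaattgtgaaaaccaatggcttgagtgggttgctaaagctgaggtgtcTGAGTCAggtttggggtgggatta
Tnfaip3, chr10:19015494-19015593, minus strand: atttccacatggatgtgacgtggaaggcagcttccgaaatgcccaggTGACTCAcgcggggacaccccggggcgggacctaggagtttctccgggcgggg
Trem2, chr17:48346301-48346400, plus strand: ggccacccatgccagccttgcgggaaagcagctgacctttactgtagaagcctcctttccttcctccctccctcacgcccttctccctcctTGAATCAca
Gpnmb, chr6:49036418-49036517, plus strand: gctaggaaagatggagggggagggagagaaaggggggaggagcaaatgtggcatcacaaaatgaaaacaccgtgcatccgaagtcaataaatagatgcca

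Inflammatory genes were higher in NZB in the same libraries as the macrophage markers, whose mean of 8.89 to 9.72 there stood against 7.19 to 7.25 in SM, and the part of the macrophage markers in this and in the interferon, class II and matrix differences was not tested. Of 26 chemokine and inflammatory genes, 17 were higher in NZB (10.6% of all genes) and 0 higher in SM (7.4%) on the atherogenic diet. Their median difference was 1.29. On chow 2 were higher in NZB (4.61%) and 0 higher in SM (4.78%), and 9 had a called positive difference between diets (2.88%). Tnfaip3, a brake on NF-kappaB signalling that NF-kappaB itself induces, was at 7.27, 8.56 and 8.46 in NZB and 5.12, 4.86 and 4.69 in SM, against 4.58 to 5.11 in the 6 chow libraries. Cxcl2, a chemokine for neutrophils, was at 5.69, 7.06 and 7.13 in NZB and 3.94, 3.73 and 3.64 in SM, and Ccl6, a myeloid chemokine, at 10.46, 10.89 and 11.52 against 7.94, 8.41 and 8.18. NZB stood above SM without overlap in all 3, with differences of 3.21, 2.86 and 2.78, and library 1 was the lowest of the NZB libraries each time. Of 25 acute phase genes, 12 were higher in NZB (10.6% of all genes) and 0 higher in SM (7.4%), with a median of 0.25. Saa3, an acute phase protein made by macrophages and hepatocytes, differed by 2.93 (SE 0.52, adjusted p = 5.7e-06) and Orm1, a plasma carrier protein, by 1.70 (SE 0.26, adjusted p = 1.7e-07). Orm1 differed as much on chow, by 2.22 (adjusted p = 8e-11).

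Of 29 measured interferon response genes, 12 were higher in NZB (10.6% of all genes) and 0 higher in SM (7.4%) on the atherogenic diet. The count of 12 was 5 without NZB library 3. Gbp2, a guanylate-binding protein induced by interferon gamma, was at 8.37, 9.35 and 9.79 in NZB and 6.40, 5.35 and 6.42 in SM (difference 3.12, SE 0.55, adjusted p = 5.2e-06). Irf8, a transcription factor of the macrophage lineage and of interferon responses, differed by 2.04 (SE 0.28, adjusted p = 5.5e-09) and by 0.22 on chow, which was not called. Ubd, a ubiquitin-like protein induced by cytokines, was at 6.66, 8.67 and 8.94 in NZB and at 4.22 to 4.68 in the other 9 libraries. Its interaction of 3.74 was lost without NZB library 2 or 3 (adjusted p = 0.0511 and 0.0979), and that of Gbp2, 2.56, was lost without any of 9 libraries (adjusted p = 0.0531 to 0.213).

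Of 20 major histocompatibility genes, 10 were higher in NZB (10.6% of all genes) and 1 higher in SM (7.4%), with a median of 0.40. The class II genes H2-Aa, H2-Ab1 and H2-Eb1 and the invariant chain Cd74, which present antigen on macrophages, dendritic cells and B cells, differed by 3.87, 3.24, 3.20 and 2.93. H2-Aa was at 11.64, 11.59 and 12.38 in NZB and 8.29, 7.21 and 8.50 in SM on the atherogenic diet and at 9.44, 9.51 and 9.46 against 7.24, 6.99 and 7.45 on chow. All 4 class II genes were called on chow too, by 1.66 to 2.24, and none had a called difference between diets. These genes vary in sequence between strains, and a difference in base sequence under a probe and a difference in level cannot be told apart here.

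The matrix and stellate cell genes leaned to SM on chow and to NZB on the atherogenic diet. Of 25 measured, 15 were higher in NZB (10.6% of all genes) and 0 higher in SM (7.4%) on the atherogenic diet (median 0.77). On chow 0 were higher in NZB (4.61%) and 5 higher in SM (4.78%), with a median of -0.33. The difference between diets was called for 14 upward (2.88% of all genes) and 0 downward (0.451%). The count of 14 was 9 without NZB library 3 or without SM library 3. Pdgfrb, the growth factor receptor of stellate cells, was at 8.28, 8.33 and 8.53 in NZB and 6.96, 6.83 and 6.48 in SM on the atherogenic diet and at 6.24, 5.99 and 6.47 against 6.76, 6.27 and 6.86 on chow. NZB was above SM without overlap on the atherogenic diet, and the chow groups overlapped (interaction 2.02, SE 0.34, adjusted p = 2e-05). Col5a2, a fibrillar collagen, differed by 1.85 (SE 0.24) and by -0.34 on chow. Tgfb1, the growth factor that drives collagen synthesis, was at 7.44, 7.62 and 7.61 in NZB and 6.16, 5.97 and 5.92 in SM, and 5.94 to 6.41 in the chow libraries. Col3a1 and Col1a1, the main scar collagens, differed by 1.29 (SE 0.34, adjusted p = 0.00308) and 0.73 (SE 0.21, adjusted p = 0.00645), and the call of Col1a1 was lost without NZB library 3 (adjusted p = 0.262) and that of Col3a1 without SM library 3 (adjusted p = 0.0736). In NZB the diet raised 21 of the 25 genes (8.79% of all genes) and in SM 0 (0.676%).

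Immunoglobulin transcripts separated the strains on either diet. Ighm, the heavy chain of IgM, was at 12.66, 12.50 and 12.27 in NZB and 7.58, 6.97 and 7.31 in SM on the atherogenic diet and at 12.11, 12.03 and 11.61 against 8.02, 7.60 and 7.35 on chow. Jchain, which joins IgM into pentamers, was at 10.88, 10.37 and 10.21 in NZB and, below the array medians, 4.62, 4.14 and 4.55 in SM, and on chow at 10.11, 9.99 and 9.54 against 5.39, 4.63 and 4.50. The differences, 5.19 and 6.05 on the atherogenic diet and 4.26 and 5.04 on chow, were not called as differing between diets (adjusted p = 0.101 and 0.501). Ighm lay at 6.98 to 8.06 in the means of the 8 other strains, so NZB was the high strain among 10. Cd79a, Cd79b and Ms4a1, which mark B cells before they become plasma cells, differed by -0.06, 0.00 and 0.19 and were not called. Cd3e of T cells was not called either (0.12), while Cd3g, also of T cells, was called higher in NZB on the atherogenic diet. The Cd3g call was lost without NZB library 3 (difference 0.47, adjusted p = 0.0785). Over the 19 lymphocyte genes the library means on that diet were 5.84 to 6.2 in NZB and 4.94 to 5.01 in SM, the latter near the array medians. Of 19 lymphocyte genes 10 were higher in NZB (10.6% of all genes) and 0 higher in SM (7.4%) on the atherogenic diet. The count of 10 was 5 without NZB library 3, and 2 among genes above the median gene. Of 11 neutrophil genes 5 were higher in NZB (10.6% of all genes) and 0 higher in SM (7.4%). S100a8, a calcium-binding protein abundant in neutrophils and in activated macrophages, was at 9.71, 9.60 and 10.24 in NZB and 6.02, 6.42 and 5.71 in SM.

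**Figure D4:**
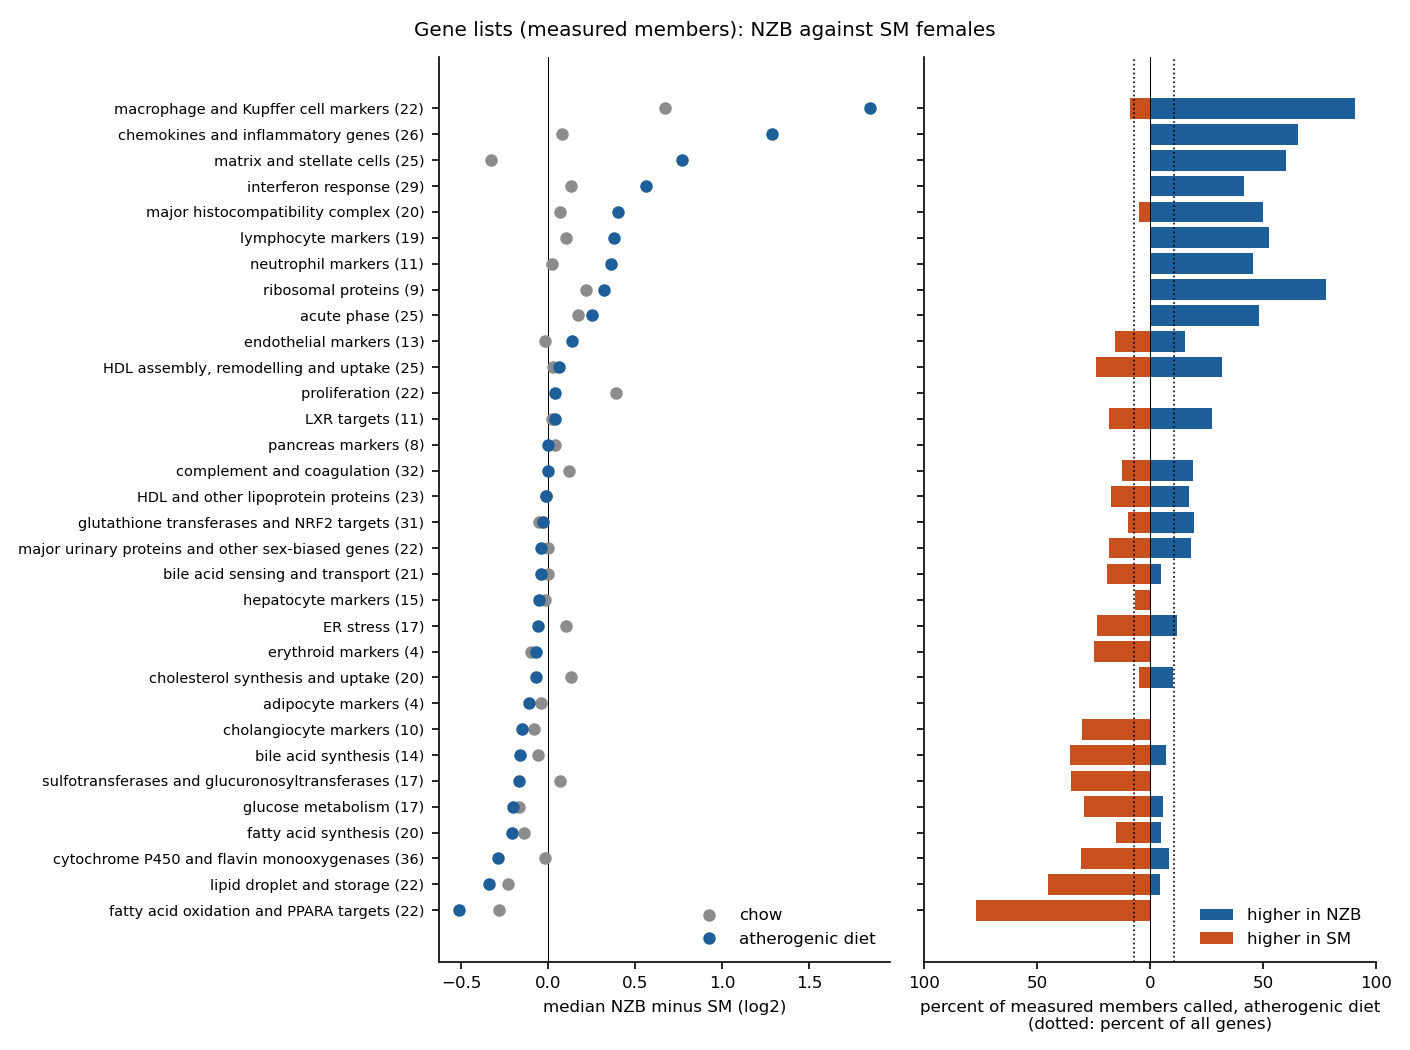
Left, the median NZB minus SM difference (log2) over the measured members (number in brackets) of each gene list, on chow (grey) and the atherogenic diet (blue). Right, the percent of members called higher in NZB (blue, to the right) or higher in SM (orange, to the left) on the atherogenic diet, with dotted lines at the percent over all genes, 10.6% and 7.4%. Macrophage markers and fatty acid oxidation genes lie at the ends, with medians of 1.85 and -0.51.

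Fatty acid oxidation was the group most often higher in SM. Measured genes of fatty acid oxidation and targets of PPARA, the receptor that switches them on during fasting, numbered 22. On the atherogenic diet 0 were higher in NZB (10.6% of all genes) and 17 higher in SM (7.4%), with a median of -0.51. On chow 0 were higher in NZB (4.61%) and 6 higher in SM (4.78%), with a median of -0.28. The difference between diets was called for 1 gene upward (2.88% of all genes) and 0 downward (0.451%). Ppara itself was at 9.62, 9.80 and 9.68 in NZB and 11.03, 11.09 and 10.97 in SM, and on chow at 10.15, 9.99 and 10.10 against 10.66, 11.25 and 11.27. SM was above NZB without overlap on both diets, by 1.33 (SE 0.18, adjusted p = 6.4e-09) and 0.98 (SE 0.18, adjusted p = 3.3e-05), all 3 probe sets were called that way, and NZB had the lowest of the 10 strain means. Lpin2, a phosphatidate phosphatase, was at 9.32, 9.26 and 9.13 in NZB and 10.68, 10.66 and 10.90 in SM (difference -1.51, SE 0.19), and -1.27 on chow. Acot1, a thioesterase and PPARA target, was at 9.29, 8.14 and 9.05 in NZB and 10.85, 10.12 and 10.77 in SM, and Pdk4, which spares glucose during fat use, at 5.91, 5.01 and 5.53 against 8.16, 6.02 and 8.06. Both were higher in SM without overlap, and each call was lost without NZB library 2 (adjusted p = 0.0623 and 0.0603), that of Pdk4 also without SM library 1 or 3 (adjusted p = 0.0886 and 0.0874). The other 14 called genes of the list, among them Cpt1a (-0.68), the gate of fatty acids into mitochondria, Ehhadh (-0.91) of peroxisomal oxidation and Acadm (-0.58), differed by -0.19 to -1.27.

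Of 22 lipid droplet and storage genes, 1 was higher in NZB (10.6% of all genes) and 10 higher in SM (7.4%), with a median of -0.34. Fitm2, which directs fat into droplets, was at 7.25, 7.34 and 7.05 in NZB and 8.43, 8.28 and 8.26 in SM, and on chow at 8.28, 7.90 and 8.19 against 8.07, 8.61 and 8.57. It fell in NZB by 0.91 on the diet, so the chow groups overlapped and the atherogenic ones did not (difference -1.11, SE 0.16, adjusted p = 4.8e-08). The 1 gene higher in NZB was Fabp4, a fatty acid carrier of fat cells and macrophages, at 8.82, 8.73 and 9.17 against 8.20, 8.06 and 7.73. Of 20 fatty acid synthesis genes 1 was higher in NZB (10.6% of all genes) and 3 higher in SM (7.4%), the latter count being 1 without NZB library 3 and 6 with array weights. Scd2, a desaturase, was at 7.30, 7.53 and 7.99 in NZB and 6.32, 5.99 and 6.22 in SM, while Me1, the malic enzyme that supplies NADPH for lipid synthesis, was lower in NZB by 1.87 (SE 0.32, adjusted p = 2e-06). The diet raised Scd2 in both strains, by 2.74 in NZB and 1.26 in SM.

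The diet lowered cholesterol synthesis genes in both parents. Of 20 measured, it lowered 19 in NZB (4.47% of all genes) and 15 in SM (0.781%). Between the strains 2 were higher in NZB and 1 higher in SM on the atherogenic diet, near the shares of all genes (10.6% and 7.4%). Hmgcs1, which makes the substrate of HMG-CoA reductase, was at 10.09, 10.07 and 9.84 in NZB and 9.09, 8.85 and 9.02 in SM, and 12.03 against 11.04 on average on chow, so NZB stayed higher by 1.01 and 0.99. Abcg5 and Abcg8, the biliary cholesterol exporters and LXR targets, rose in both strains, by 1.57 and 1.52 in NZB and 1.77 and 1.60 in SM, and were not called between them on either diet. Of 11 LXR targets, the diet raised 9 in NZB (8.79% of all genes) and 7 in SM (0.676%). The call of Hmgcs1 was lost without NZB library 1 or 2 or SM library 2 on the atherogenic diet (adjusted p = 0.051 to 0.0643) and without any of 4 chow libraries on chow (adjusted p = 0.081 to 0.245). The list's count higher in NZB fell to 0 without NZB library 2 and to 1 without NZB library 1 or 3 or SM library 1 or 2.

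Bile acid synthesis, the route by which cholesterol leaves the body, held 5 genes higher in SM and 1 higher in NZB among 14. Of all genes 7.4% were higher in SM and 10.6% higher in NZB. Cyp39a1, an oxysterol hydroxylase, was at 4.0, 3.97 and 3.98 in NZB and 7.32, 8.73 and 8.72 in SM, and on chow at 4.02, 4.04 and 3.92 against 8.60, 9.16 and 9.64. Every NZB library was near 4 on either diet, below the array medians, and the 8 other strains' means were 5.43 to 8.96. Amacr, which turns the side chain for shortening in peroxisomes, was at 9.64, 9.16 and 9.42 in NZB and 11.19, 11.54 and 11.34 in SM (difference -1.95, SE 0.16), and -1.84 on chow. Cyp8b1, which makes cholic acid, was at 8.73, 8.02 and 8.22 in NZB and 10.19, 10.51 and 9.69 in SM (difference -1.80, SE 0.37, adjusted p = 8.7e-05). The diet lowered Cyp8b1 in both, by 2.67 in NZB and 1.51 in SM, and the difference between diets was not called (adjusted p = 0.295). Cyp7a1, the rate-limiting enzyme, was at 11.04, 10.73 and 10.58 in NZB and 9.45, 10.75 and 8.57 in SM, and the overlapping groups were not called (difference 1.19, SE 0.60, adjusted p = 0.171). Cyp7b1, of the alternative pathway, was the 1 gene higher in NZB (0.95, SE 0.24, adjusted p = 0.00232), a call lost without SM library 1 (adjusted p = 0.0804). Abcb4, which puts phospholipid into bile, was lower in NZB by 0.71 (SE 0.13) and by 0.53 on chow.

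Of 36 cytochrome P450 and flavin monooxygenase genes, 3 were higher in NZB, near the share of all genes (10.6%), and 11 higher in SM (7.4% of all genes), the former count being 1 without NZB library 1. Cyp2c23, an arachidonic acid epoxygenase, was at 8.37, 8.47 and 8.39 in NZB and 12.89, 12.77 and 12.73 in SM, and its difference was -4.39 on the atherogenic diet and -3.66 on chow. Cyp17a1, of steroid synthesis, was at 5.94, 5.62 and 5.80 in NZB and 8.40, 9.57 and 10.03 in SM, and the diet lowered it in SM by 1.82. Cyp3a16, a drug-metabolising P450, had the largest negative interaction of the called genes (-3.38, SE 0.74, adjusted p = 0.00159): NZB fell from 8.87, 8.44 and 8.42 on chow to 4.94, 5.07 and 3.78, while SM had 7.87, 5.42 and 8.14 on chow and 7.83, 5.47 and 6.32 on the atherogenic diet. Its strain difference on the atherogenic diet, -1.95, was lost without NZB library 3 or SM library 1 (adjusted p = 0.0669 and 0.106). With the 12 female NZB and SM libraries alone, neither its interaction nor that strain difference was called (adjusted p = 0.113 and 0.0801).

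Several of the largest differences kept their direction on both diets, though not always their size. Wfdc21, a secreted protein with a protease inhibitor fold, was at 7.24, 7.52 and 7.95 in NZB and 12.38, 12.85 and 12.58 in SM, and on chow at 8.53, 8.85 and 9.52 against 12.73, 12.63 and 12.65. The 8 other strains' means were 12.22 to 12.79, so NZB stood apart from all of them, and its gap to SM widened by 1.33 with the diet (SE 0.19, adjusted p = 2.6e-07). Akr1c12 and Akr1c18, neighbouring aldo-keto reductases, the latter being the enzyme that inactivates progesterone, departed in NZB in opposite directions. Akr1c12 was at 6.82, 6.66 and 6.92 in NZB and 9.57, 9.95 and 9.89 in SM, whereas Akr1c18 was at 8.0, 8.22 and 7.76 in NZB and 5.85, 5.61 and 5.78 in SM. On chow Akr1c18 was at 10.70, 10.54 and 10.83 in NZB, so the diet lowered it there by 2.70, against a change of -0.30 in SM that was not called. Gdpd3, a lysophospholipase, was at 5.17, 4.93 and 5.15 in NZB and 9.24, 9.87 and 9.86 in SM, a difference of -4.57, and on chow -4.08.

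Reep3, which shapes the endoplasmic reticulum, was at 10.32, 10.01 and 10.09 in NZB and 6.65, 5.99 and 5.98 in SM. Here SM was the strain apart: the means of 7 of the 8 other strains lay between 10.1 and 10.7, and I/LnJ was at 5.08. Of its 6 probe sets 3 were called in that direction, with differences from -0.34 to 4.73. Trim34a, a member of the TRIM family of ubiquitin ligases, was at 4.79, 4.92 and 4.66 in NZB and 8.18, 7.84 and 7.93 in SM, and its second probe set was called in the opposite direction (0.96). Over all genes, 76 of 4064 with a called probe set had calls in both directions. Hc, complement C5, was lower in NZB by 1.74 (SE 0.09), and by 1.22 on chow. Of 9 ribosomal protein genes 7 were higher in NZB (10.6% of all genes) and 0 higher in SM (7.4%), with a median of 0.32. Rps6 of the small subunit differed most, at 7.64, 7.67 and 7.83 against 6.44, 6.46 and 6.32.

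On chow, large differences included Cox6b2, a cytochrome oxidase subunit of testis (3.49), Sdr9c7, a retinol dehydrogenase (3.49), and Mtm1, a phosphoinositide phosphatase (3.17), higher in NZB, and Rassf4 (-3.59) and Rgs16 (-3.45), higher in SM. Rgs16, a brake on G-protein signalling, was at 6.47, 7.65 and 7.52 in NZB and 10.31, 11.18 and 10.50 in SM on chow but at 10.23, 10.28 and 10.55 against 10.70, 10.38 and 10.37 on the atherogenic diet. The strains thus overlapped on the atherogenic diet and not on chow (interaction 3.31, SE 0.80, adjusted p = 0.00575). Slc3a1, an amino acid transporter subunit, did the same with NZB the higher strain, at 9.42, 9.22 and 9.49 against 7.38, 7.11 and 7.59 on chow and 7.69, 7.41 and 8.17 against 7.23, 7.81 and 7.47 on the atherogenic diet.

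Against the mean of the 8 other young strains on the same diet, NZB departed in 3098 genes (17%), 1880 higher (10.3%) and 1218 lower (6.69%), and SM in 2005 (11.0%), 933 higher (5.13%) and 1072 lower (5.89%). These splits moved with the processing: quantile normalization gave 1693 higher and 1554 lower for NZB, while for SM array weights gave 2536 and 2141, and leaving out SM library 1 gave 963 and 865. Both contrasts share the 8 strains. Of the 1924 genes higher in NZB than SM, NZB alone departed in 1008, SM alone in 315, both in 370 and neither in 231. Among the 22 macrophage markers NZB was above the 8 in 20 and below them in 2, and SM was below them in 13. Gpnmb averaged 11.63 in NZB (SD 0.46, n = 3), 11.12 in A/J and 5.30 to 6.68 in the 7 remaining strains other than SM, and Itgax 8.33 in NZB, 8.03 in A/J and 4.84 to 5.35 in those 7. Mmp12 was highest in A/J (10.52), with NZB at 9.69, MRL/MpJ-Tnfrsf6lpr/J at 8.33 and SM lowest at 4.39. So NZB shared the upper end with A/J in these 3 genes, and how NZB differs from A/J was not tested. Without NZB library 3 the count for NZB was 1684, and without SM library 2 or 3 the count for SM was 1183 or 1172.

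**Figure D5:**
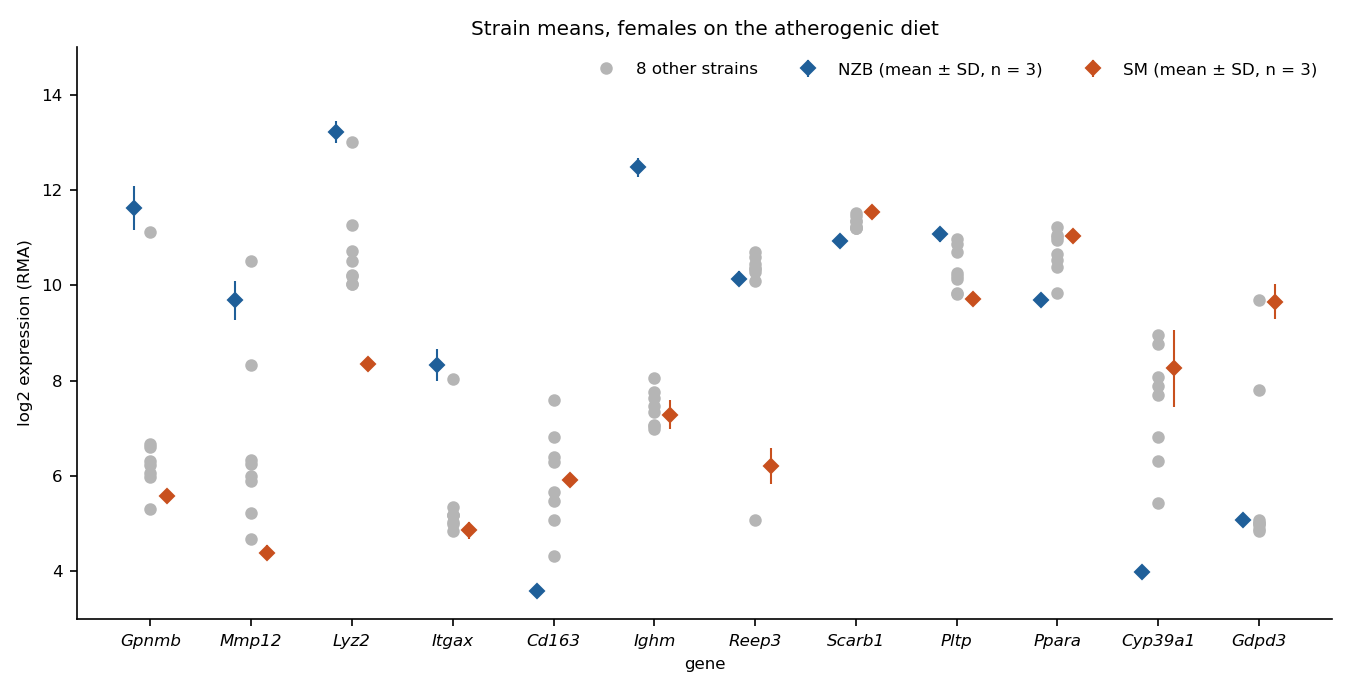
Mean log2 expression of 12 genes in females on the atherogenic diet for NZB (blue) and SM (orange), each with its SD (n = 3), and for the 8 other strains (grey, means). The strain that stands apart differs by gene: NZB alone is high for Ighm and lowest for Cyp39a1 and Cd163, SM is lowest for Lyz2, and a grey point lies near NZB for Gpnmb and Itgax and near SM for Reep3 and Gdpd3.

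Males gave the strain difference in libraries that the female means did not use, though the same fit and spread per gene served both sexes. The male values were averaged over both diets because the diet labels of the SM male groups are in doubt. The mean evens out diet only if the SM males were split equally between the diets, which was not tested. In males 3250 genes (17.9%) were called, 1809 higher in NZB (9.94%) and 1441 higher in SM (7.92%). Of 20 cholesterol synthesis genes, most of which the diet lowered in females, 13 were higher in NZB males and 0 higher in SM males. Their median difference was 0.55, and the part of diet in it was not tested. Of the 3270 female calls on the atherogenic diet, 3054 (93.4%) had the same sign in males, 1791 (54.8%) were called in the same direction and 9 in the opposite one. The share with the same sign over all genes was not computed. Of the 1003 calls shared by both diets 862 (85.9%) were called in males too, and of the 520 atherogenic-diet calls with a called difference between diets 266 (51.2%) were. Gpnmb was higher in NZB males by 2.43 (adjusted p = 2.6e-16), and Cyp39a1 was lower by 3.02. Scarb1 (-0.71), Ppara (-1.01), Pltp (0.43) and Abcg1 (0.67) were called in the female direction, Apoa2 was called at 0.11, and Saa1 (-0.86), Saa2 (-0.49) and Marco (-0.78) had the opposite sign without a call.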

How the data were processed

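Liver RNA of 144 mice was measured on expression arrays of 45101 probe sets. The authors deposited log2 values per probe set, between 2.9 and 14.74 with array medians of 5.0 to 5.09, and the submitters' processing notes name RMA, which corrects background, normalizes between arrays and summarises probes. Its version and the arrays normalized together are not given in the sources used here. Probe sets with 1 gene symbol (34958 of 45101) were used after names were updated through gene IDs, 932 had several symbols and 9211 none. Each of 18193 genes was represented by its probe set with the highest mean.

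Values were fitted with limma 3.58.1 (R 4.3.3) on 120 libraries of the 10 strains harvested at 11 to 13 weeks, with 40 means for strain, sex and diet and no further term. CAST and PERA, older at harvest, were left out. Adjusted p-values are limma's with Benjamini-Hochberg adjustment over all genes, and every SE and adjusted p comes from this fit. Members and gene lists were chosen with earlier results of these data known, so list counts are descriptions. Genes were named by size: up to 15 per direction on the atherogenic diet, 5 on chow, 12 for the difference between diets, 6 of opposite direction, 4 per list, and the HDL lists whole, while other genes named were chosen after their values were seen. Alternatives were a replicate block, other sets of libraries, an intensity trend, array weights, quantile normalization or median centring, other uses of probe sets, a filter on low values, a stricter threshold and leaving out each library. The fit was tested on simulated data: of 200 genes changed by 1 log2 unit, 96.5% were recovered for the atherogenic-diet difference and 91.5% for the difference between diets, and of 200 changed by 0.5, 76% and 46%. The simulated noise was independent and equally wide in all libraries. Array weights of the 12 libraries compared were 0.43 to 3.22, so the rates do not cover such unequal libraries. Deviations of same-numbered NZB female libraries on the 2 diets correlated at 0.20, 0.15 and 0.23, and those of SM females at 0.30, 0.40 and 0.05. The labels state no pairing, and whether these small correlations mark one was not tested. Precision is limited by 3 mice per group.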

Additional observations from a re-analysis of the deposited data

Results flagged for a closer look

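The strain difference itself differed between the diets for 606 genes by limma's test of the interaction, and 68 of the genes named by the rules or lists were among them, 49 positive and 19 negative. Each value below is (NZB minus SM on the atherogenic diet) minus (NZB minus SM on chow) in log2 units. The groups of 3 libraries were too small for the test of single outlying samples.

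The positive values of 3 or more were those of Gpnmb (6.16), Fos (5.97), Mmp12 (5.05), Jun (4.44), Ubd (3.74), Clec4e (3.70), Itgax (3.66), Gpr137b-ps (3.40), Rgs16 (3.31), Atp6v0d2 (3.26), Capg (3.23), Clec7a (3.16) and Tnfaip3 (3.14). Between 2 and 3 lay Marco (2.95), Atf3 (2.90), Lgals3 (2.75), Cxcl2 (2.75), Cd68 (2.57), Gbp2 (2.56), Zfp36 (2.23), Col5a2 (2.19), Col3a1 (2.17), S100a8 (2.09), Pla2g7 (2.07), Anxa1 (2.06), Rassf4 (2.05) and Pdgfrb (2.02). The remaining positive values were those of Ccl6 (1.99), Junb (1.83), Irf8 (1.82), Tgfbi (1.80), Dcn (1.65), Lyz2 (1.55), Hmox1 (1.55), Ier2 (1.49), Scd2 (1.48), C1qc (1.41), C1qb (1.38), Tgfb1 (1.36), C1qa (1.30), Fabp4 (1.17), Nkg7 (1.13), Trem2 (1.10), Col1a1 (1.05), Apobec1 (1.02), Abcg1 (1.01), Cbr3 (1.01), Npc2 (0.83) and Rps6 (0.58).

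The negative values were those of Cyp3a16 (-3.38), Cd163 (-3.14), Akr1c18 (-2.40), Elovl3 (-2.24), Spc25 (-2.02), Cdc20 (-1.88), Slc3a1 (-1.76), 2810410L24Rik (-1.66), Ect2 (-1.52), Ola1 (-1.39), Sult5a1 (-1.35), Wfdc21 (-1.33), Mtm1 (-1.14), Clec4f (-1.07), Cox6b2 (-1.01), Fitm2 (-0.81), Pon3 (-0.69), Hc (-0.53) and Apon (-0.36). Of the 68 calls, 34 were lost when 1 of the 12 libraries was left out. Without NZB library 3 on the atherogenic diet 27 were lost (adjusted p = 0.0569 to 0.372): Lyz2, Pla2g7, S100a8, Ubd, Clec4e, Apobec1, Abcg1, Npc2, C1qa, C1qb, C1qc, Gbp2, Nkg7, Hmox1, Cbr3, Rps6, Ier2, Col1a1, Trem2 and Marco among the positive values, and Elovl3, Cdc20, 2810410L24Rik, Ect2, Sult5a1, Apon and Fitm2 among the negative ones. The other 7, lost only without another library (adjusted p = 0.0502 to 0.108), were Clec4f, Cox6b2, Hc, Junb, Mtm1, Pon3 and Spc25.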

How the results depend on the processing

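No call of a named gene changed direction under the alternatives run. With the 12 female NZB and SM libraries alone, 42 of 336 named calls were lost. Among them were the differences between diets of Cyp3a16, Clec4e, Wfdc21, Spc25, Clec4f and Col1a1 (adjusted p = 0.052 to 0.127). Among the counts, the direction with more calls turned under some alternatives for SM against the other strains, as given above, for the diet change in SM (123 up and 142 down, but for example 299 and 264 with array weights) and for chow (for example 633 higher in NZB and 594 higher in SM with the 12 female NZB and SM libraries alone, 869 and 818 with the 60 female libraries). The atherogenic-diet count of 3270 stayed within 1.5 times under all of them, but its lean to NZB was 58.8% of calls as reported, 50.4% after quantile normalization and 50% with array weights. With the 12 female NZB and SM libraries alone, the difference between diets was called for 374 genes and the diet change in SM for 170. With array weights these were 994 and 563, and SM departed from the other strains in 4677 genes. At an adjusted p under 0.01 the counts were 1028 on chow, 312 for the difference between diets, 1573 and 151 for the diet change in NZB and SM, 1210 for SM against the other strains and 645 called alike on both diets. Leaving out 1 library gave 2295 to 3310 genes on the atherogenic diet, 1165 to 1715 on chow, 265 to 695 for the difference between diets, 1478 to 2429 for the diet change in NZB, 184 to 266 in SM, 1684 to 3124 for NZB and 1172 to 2044 for SM against the other strains, 3227 to 3274 in males and 786 to 1034 on both diets. Of named calls, 38 of 169 on the atherogenic diet and 27 of 99 on chow were lost without at least 1 library.

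With the replicate block the counts were 3257, 1709 and 598 for the atherogenic diet, chow and the difference between them. Deviations of same-numbered NZB and SM libraries correlated at -0.06, -0.18 and -0.07 on the atherogenic diet and at -0.07, 0.19 and -0.11 on chow. The numbers thus gave no consistent pairing of the strains. The block lost the calls of Junb (adjusted p = 0.0517) and, for the difference between diets, Gbp2 (adjusted p = 0.0503). A replicate block within NZB females, chosen after seeing the data, gave 2410 genes for the diet change in NZB and 637 for the difference between diets, and lost the call of Junb (adjusted p = 0.0526) and no other named call. No such block was fitted within SM females. Base differences between strains under a probe and differences in level cannot be told apart, and 3 mice per group limit what could be called.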
